A study of Arabidopsis thaliana with 18 samples.

Results

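The genes described here build and decorate the polysaccharides of the plant cell wall, and they were chosen by symbol. A probe set became a member when it was annotated to 1 gene whose symbol begins with TBL, EXT, FLA, AGP, GAUT or IRX followed by a number, or with CSL followed by a letter and a number. This rule used no measured value. It gave 32 of 22746 probe sets other than controls, each for a different gene: 22 TBL, 7 CSL, 2 IRX and 1 GAUT genes. The rule also asks for extensins (EXT), fasciclin-like arabinogalactan proteins (FLA) and arabinogalactan proteins (AGP), the glycoproteins of the wall. It found 0 probe sets for these, so the values concern wall polysaccharide genes and say nothing of wall glycoproteins. The RefSeq gene table for the assembly TAIR10.1 lists 146 genes whose symbols meet the rule, 41 of them TBL and 26 CSL, so most such genes are not analysed here.

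Plant walls are made of cellulose microfibrils set in hemicelluloses and pectins. Cellulose synthase-like (CSL) proteins make hemicellulose backbones in the Golgi: CSLC proteins make the glucan chain of xyloglucan, CSLA proteins make mannans, and CSLD proteins serve cell types that grow at their tip, CSLD2 in root hairs. IRX15 and IRX15-L are related proteins needed for normal glucuronoxylan, the main hemicellulose of secondary walls, and GAUT genes form a family of galacturonosyltransferases named for pectin synthesis. TRICHOME BIREFRINGENCE-LIKE (TBL) proteins add acetyl groups to wall polysaccharides: TBL23, TBL25 and TBL26 acetylate mannan, and TBL28, TBL30, TBL32, TBL34 and TBL35 acetylate xylan.

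Transcripts were measured in Arabidopsis thaliana of ecotype ws-2 at growth stage 3.90 on Affymetrix ATH1 arrays, which carry several short probes for each gene. Caesium-treated plants received dilute Murashige and Skoog (MS) nutrient solution holding caesium, an alkali metal like potassium, at 2 mM, and potassium-starved plants received it with no potassium. Control plants carry no treatment text in the labels. Roots and shoots of each of the 3 treatments were sampled, which gave 6 groups of 3 arrays, with RNA pooled from 40 to 50 plants a sample. The labels number the replicates but do not say that they were separate sowings, and p-values then reflect only the spread among these samples, which may be technical. Signals are linear intensities that the authors had scaled to a common level, and the mean of an array is about 100 once the highest and lowest 2% of its values are set aside. Changes are on the scale of log2(signal + 16), and "past the threshold" means a limma p adjusted by Benjamini-Hochberg over all tested probe sets under 0.05. Arrays measure RNA of the whole organ, so that fewer cells of a type and less RNA per cell cannot be told apart.

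Array medians lay between 33.0 and 45.4, and the number of arrays, 18, limits the precision. By their titles 2 root arrays are repeats: caesium-treated replicate 2 and potassium-starved replicate 1. Scanner background averaged 67.5 ± 4.55 on caesium-treated, 65.3 ± 7.48 on potassium-starved and 77.0 ± 1.89 on control root arrays (SD, n = 3 each), and its group means in shoots lay between 71.4 and 72.8. Markers fit the labelled organs: the summed signal of 4 photosynthesis genes ran from 63.9 to 283 on root arrays and from 4424 to 9625 on shoot arrays. The root marker PYK10 reached between 1915 and 3501 on root arrays, while on shoot arrays it ran from 46.9 to 521 in replicates 1 and 3 and from 903 to 1200 in replicate 2 of every treatment. The part of root RNA in the shoot results was not tested.

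Of the 32 genes, 17 had a mean signal above the floor for testing, 27.7 in roots and 26.7 in shoots, in both organs. These were CSLA03, CSLC04, CSLC5, CSLC6, CSLD2, IRX15-L and 11 TBL genes (16, 18, 23, 25, 28, 35, 36, 37, 38, 39 and 45). TBL19, TBL30, TBL32, TBL34 and TBL41 were above it in roots alone, at signals between 10.7 and 164.5 there and between 1.3 and 23.9 in shoots. CSLA01, GAUT15 and TBL26 were above it in shoots alone, at 9.5 to 33.3 in roots and 20.4 to 148.8 in shoots. The remaining 7 genes (CSLC12, IRX15, TBL15, TBL20, TBL21, TBL42 and TBL43) stayed below it in both organs, between 1.0 and 36.8 in roots and between 0.6 and 31.4 in shoots, and were not tested. The members called tested below are therefore 22 in roots and 20 in shoots, and they are not all members. The probe set of TBL32 has a suffix that marks probes shared with related transcripts, so its signal may hold more than 1 gene.

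Wall genes differed between the organs of control plants more often than not. Of the 17 genes tested in both organs, 9 were higher in control roots, where 29.4% of all tested probe sets were, and 3 were lower, where 18.3% were. The median change of root over shoot was 0.54 for these genes, against 0.16 for all probe sets. TBL39 read 424.6, 317.5 and 273.6 in control roots, against 48.3, 52.5 and 87.1 in control shoots. All 3 root arrays lay far above the shoot arrays, a change of 2.18 ± 0.20 (SE) at an adjusted p of 3.96e-08. CSLD2 read 406.1, 337.6 and 355.2 in control roots, against 145.5, 95.6 and 105.5 in control shoots, a change of 1.55 ± 0.17 (adjusted p = 3.58e-07).

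The other genes higher in control roots were TBL36 (1.58 ± 0.44), TBL38 (1.52 ± 0.28), the xylan acetyltransferase TBL35 (1.23 ± 0.17), IRX15-L (1.16 ± 0.25), TBL18 (0.76 ± 0.16), TBL28 (0.75 ± 0.18) and TBL16 (0.54 ± 0.12). TBL36 varied most among shoots, with 64.9, 147.4 and 337.7 in control shoots, and its adjusted p of 0.00635 became 0.05 without control shoot replicate 1. The 3 genes lower in control roots were TBL45, CSLC04 and TBL25. TBL45 read 62.0, 53.1 and 55.5 in control roots, against 295.0, 421.7 and 363.6 in control shoots, a change of -2.36 ± 0.24 (adjusted p = 2.07e-07). CSLC04 changed by -1.35 ± 0.14 (adjusted p = 2.69e-07) and the mannan acetyltransferase TBL25 by -1.09 ± 0.16 (adjusted p = 1.87e-05). CSLA03, CSLC5, CSLC6, TBL23 and TBL37 did not pass, with changes between -0.41 and 0.39.

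The wall genes include 2 pairs of chromosomal neighbours. TBL28 and TBL30, both xylan acetyltransferases, are adjacent protein-coding genes (AT2G40150 and AT2G40160) in the TAIR10.1 table. TBL30 read 87.4, 78.9 and 164.5 in control roots, against 12.3, 10.3 and 13.5 in control shoots, and TBL28 was called above. TBL21 and TBL19 (AT5G15890 and AT5G15900) are also adjacent. TBL21 read 26.2, 35.9 and 22.0 in control roots, against 1.4, 1.2 and 1.5 in control shoots, and TBL19 read 39.2, 36.8 and 30.6, against 14.4, 11.5 and 11.3. In each of these genes all control root arrays lay above all control shoot arrays. The same held for genes outside these pairs, such as TBL16, TBL18 and TBL38, and how many of all probe sets did so was not counted. TBL30 and TBL19 were below the floor in shoots and TBL21, averaged over treatments, in both organs, so these 3 had no test. A higher value in roots was common, with 13 of the 17 tested genes positive (76.5%, against 61.2% of all probe sets). Averaged over an organ's arrays, the brightest TBL probe sets were those of TBL36 and TBL39 in roots and of TBL25 and TBL45 in shoots, and the brightest CSL probe sets in both organs were those of CSLD2 and CSLC04. Signals of different probes do not rank the transcripts of different genes.

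**Figure D1:**
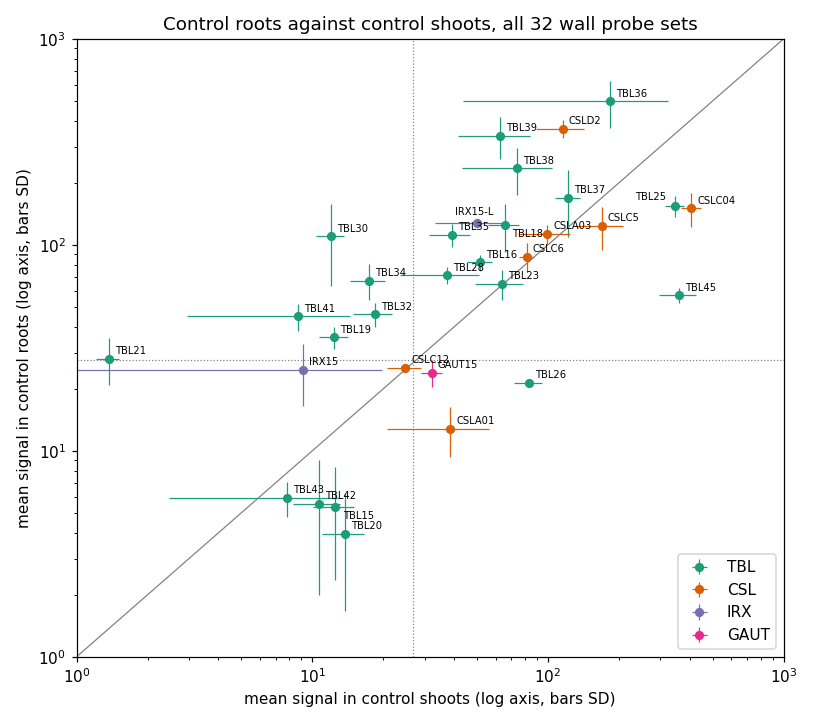
Mean signal of each of the 32 genes in control roots (vertical log axis) against control shoots (horizontal log axis), with SD over 3 arrays as bars, coloured by family; a bar that would pass below 1 is cut at the axis. Points above the solid line are higher in roots, as for TBL39 (339 against 62.6), points below it are lower in roots, as for TBL45 (56.9 against 360.1), and dotted lines are the floors for testing.

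In potassium-starved shoots 7 of the 20 tested wall genes fell and 0 rose, against 17.1% of all tested probe sets lower and 12.1% higher. The 7 were 4 CSL genes (CSLC04, CSLC5, CSLC6 and CSLA03) and 3 TBL genes (TBL25, TBL35 and TBL45). The 20 genes had a median change of -0.36 and 16 of them were negative (80.0%), while all probe sets had a median of -0.12 and 59.2% of them were negative. Centring each array on its median moved the median of all probe sets to -0.01 and that of the wall genes to -0.25, and the same 7 genes passed. IRX15-L then also passed as higher, and quantile normalization likewise gave 1 higher and 7 lower genes.

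All 3 tested CSLC genes, which make the xyloglucan backbone, were low in potassium-starved shoots. CSLC04 read 161.4, 171.2 and 189.0 in potassium-starved shoots, against 360.9, 428.0 and 428.9 in control shoots. The highest potassium-starved array was less than the lowest control array, and the potassium-starved mean was 42.8% of the control mean, a change of -1.15 ± 0.15 (SE; limma adjusted p = 0.000502). CSLC5 read 63.0, 51.6 and 69.6 in potassium-starved shoots, against 144.9, 147.9 and 213.8 in control shoots, a change of -1.24 ± 0.19 (adjusted p = 0.00114). CSLC6 read 53.0, 38.8 and 51.9 in potassium-starved shoots, against 75.3, 81.3 and 87.4 in control shoots, a smaller change of -0.61 ± 0.16 (adjusted p = 0.0153). In these genes the groups did not overlap, and the call of CSLC6 was lost without control replicate 3 (adjusted p = 0.0621). CSLC12 had signals from 17.2 to 31.4 in potassium-starved shoots and from 20.8 to 28.9 in control shoots, too low for a test.

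The mannan genes divided. CSLA03, a mannan synthase, read 19.1, 37.1 and 33.7 in potassium-starved shoots, against 122.5, 73.5 and 102.1 in control shoots. Its mean fell to 30.2% of the control mean, a change of -1.33 ± 0.21 (adjusted p = 0.0014). The mannan acetyltransferase TBL25 read 114.1, 99.4 and 160.6 in potassium-starved shoots, against 309.0, 361.6 and 368.8 in control shoots, a change of -1.38 ± 0.19 (adjusted p = 0.000737). Groups of both genes were far apart. CSLA01 (-0.10 ± 0.24), TBL23 (-0.33 ± 0.18) and TBL26 (-0.21 ± 0.33), which serve the same polymer, did not pass, with adjusted p between 0.174 and 0.774.

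TBL45 read 71.9, 152.8 and 176.7 in potassium-starved shoots, against 295.0, 421.7 and 363.6 in control shoots. It spread more than the other genes, yet its groups did not overlap, with a change of -1.39 ± 0.28 (adjusted p = 0.00477). TBL35, a xylan acetyltransferase, read 20.4, 10.7 and 26.0 in potassium-starved shoots, against 30.1, 45.0 and 41.9 in control shoots, a change of -0.67 ± 0.19 (adjusted p = 0.0254). Its potassium-starved mean lay below the floor, so the size depends on the 16 added. The call of TBL35 was lost in 3 of 6 fits that left out 1 array, without potassium-starved replicate 2, control replicate 2 or control replicate 3 (adjusted p from 0.0701 to 0.0834).

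IRX15-L, the glucuronoxylan gene, stood at the other end. It read 129.7, 74.5 and 98.4 in potassium-starved shoots, against 33.5, 49.0 and 67.0 in control shoots. All 3 potassium-starved arrays were higher and the mean was 202% of the control mean, but the change of 0.83 ± 0.32 did not pass (adjusted p = 0.0706). When shoot arrays were paired by replicate number as a block, IRX15-L (0.83, adjusted p = 0.0212) passed as higher, and TBL28 (-0.46, adjusted p = 0.0345) and TBL36 (-0.74, adjusted p = 0.0368) passed as lower. CSLD2 (0.36 ± 0.19), TBL37 (0.31 ± 0.20) and GAUT15 (0.20 ± 0.15) were the other positive changes and did not pass. The remaining changes, of TBL16, TBL18, TBL38 and TBL39, lay between -0.39 and 0.00. Beside these results, 3 of 4 tested photosynthesis markers fell, and the summed signal of the 4 ran from 4424 to 6730 in potassium-starved shoots and from 8823 to 9625 in control shoots; their part in the wall results was not tested.

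**Figure D2:**
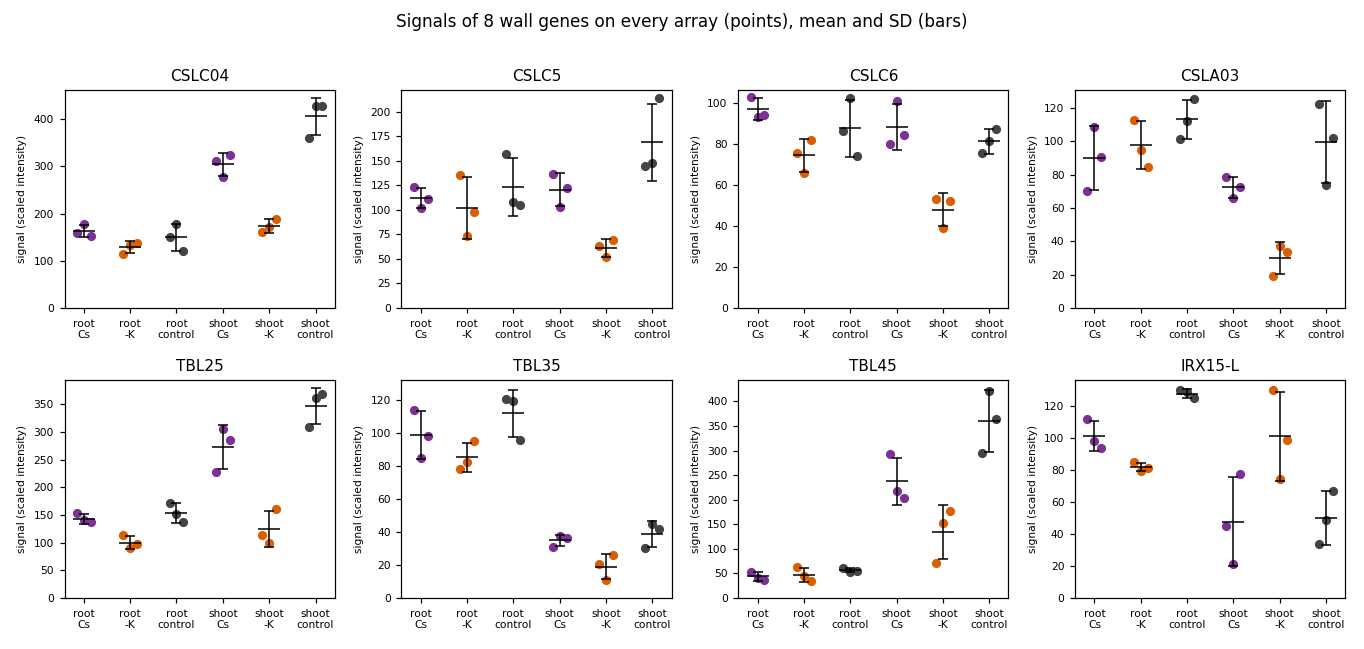
Signal (linear scaled intensity, from 0) of 8 genes on every array, in roots and then shoots, for caesium-treated (Cs), potassium-starved (-K) and control plants; points are arrays and bars the mean and SD (n = 3). In 7 genes the potassium-starved shoot arrays lie below every control shoot array, while IRX15-L lies above them in shoots (101 against 49.8 on average) and below them in roots (81.7 against 128).

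Caesium moved no wall gene past the threshold in shoots. Of the 20 tested genes 0 passed in either direction, and 0.762% of all tested probe sets were higher and 0.234% lower. At an unadjusted p under 0.05 there were 2 of 20, or 10.0%, against 15.2% of all probe sets, and the median change was -0.09. The smallest p belonged to CSLC04, CSLC5 and TBL45, genes that fell under potassium starvation. CSLC04 read 311.0, 278.2 and 324.2 in caesium-treated shoots, below all 3 control arrays, with a change of -0.40 ± 0.15 (adjusted p = 0.225). CSLC5 read 136.8, 103.1 and 122.0, a change of -0.42 ± 0.19 (adjusted p = 0.311), and TBL45 read 292.1, 218.2 and 203.1, a change of -0.57 ± 0.28 (adjusted p = 0.363). CSLC5 alone passed when arrays were weighted by quality (adjusted p = 0.0466). IRX15-L read 44.7, 21.4 and 77.2 in caesium-treated shoots and overlapped the control arrays.

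Set against potassium-starved shoots, caesium-treated shoots were higher in 8 of the 20 tested genes and lower in 1, where 18.7% and 9.72% of all tested probe sets were. The summed signal of the 4 photosynthesis markers ran from 6892 to 8582 in caesium-treated and from 4424 to 6730 in potassium-starved shoots, and 1 of them, SBPASE, was higher (0.71, adjusted p = 0.0446); their part in the wall results was not tested. Caesium-treated and potassium-starved plants share no array, but the genes are in part the same as in the comparison with control, which shares the potassium-starved arrays. TBL25 read 228.6, 306.1 and 285.4 in caesium-treated shoots, above every potassium-starved array, a change of 1.05 ± 0.19 (adjusted p = 0.0041). CSLA03 read 78.6, 66.0 and 72.3, a change of 0.96 ± 0.21 (adjusted p = 0.0084). CSLC6 read 79.7, 100.8 and 84.1, a change of 0.71 ± 0.16 (adjusted p = 0.00952). CSLC5 changed by 0.82 ± 0.19 (adjusted p = 0.0103) and CSLC04 by 0.76 ± 0.15 (adjusted p = 0.00561).

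These 5 genes kept their calls in every alternative fit. TBL45 (0.82 ± 0.28), TBL35 (0.57 ± 0.19) and TBL18 (0.50 ± 0.17) had adjusted p of 0.0471, 0.0484 and 0.0429. Each of these passed in only 1 of the 6 fits that left out an array, TBL45 and TBL35 without potassium-starved replicate 3 and TBL18 without potassium-starved replicate 1, and none of the 3 passed with each array centred on its median (adjusted p of 0.134, 0.135 and 0.134). IRX15-L was lower in caesium-treated shoots, with a change of -0.94 ± 0.32 (adjusted p = 0.0463), and passed in 1 of 6 such fits, without caesium-treated replicate 3. With each array centred on its median, or after quantile normalization, 5 genes were higher and 2 lower, and centring moved the median of all probe sets to -0.07, against 0.13 before. With the replicate block TBL36 passed too (0.93, adjusted p = 0.014). CSLD2 did not differ detectably (0.00 ± 0.19, adjusted p = 0.997).

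In roots, potassium starvation lowered 2 of the 22 tested wall genes and raised 0, where 0.491% and 0.975% of all tested probe sets were lower and higher. TBL41 read 20.5, 18.1 and 13.4 in potassium-starved roots, against 52.4, 43.0 and 39.6 in control roots. The groups were far apart, with a change of -0.87 ± 0.17 (adjusted p = 0.0409), and the potassium-starved mean lay below the floor. IRX15-L read 84.7, 79.4 and 81.0 in potassium-starved roots, against 130.0, 128.3 and 124.6 in control roots. Its replicates differed little, and its mean fell to 64% of the control mean, a change of -0.56 ± 0.12 (adjusted p = 0.0495).

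Neither root call was firm. With scanner background as a covariate, the changes were -1.19 for TBL41 (adjusted p = 0.208) and -0.59 for IRX15-L (adjusted p = 0.444), and without the 2 arrays titled repeat they were -0.94 (0.0601) and -0.58 (0.0899). Leaving out any 1 of the 6 arrays lost the call of IRX15-L, and any but potassium-starved replicate 1 lost that of TBL41, with 0 or 1 genes left past the threshold. Weighting arrays by quality gave 7 genes.

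Of the 22 genes tested in roots, 20 had a negative change (90.9%, against 53.1% of all probe sets), the median was -0.32 against -0.02, and 10 reached an unadjusted p under 0.05 (45.5% against 18.4%). The next 3 by size of p were TBL28 (-0.62 ± 0.15, adjusted p = 0.0669), TBL25 (-0.55 ± 0.14, adjusted p = 0.0791) and TBL30 (-0.74 ± 0.21, adjusted p = 0.106). TBL28 read 39.4, 47.2 and 36.3 in potassium-starved roots, against 72.8, 76.9 and 64 in control roots, with no overlap. TBL25 read 113.1, 89.7 and 96.9 in potassium-starved roots, against 172.5, 152.1 and 136.9 in control roots. TBL30 read 60.1, 57.4 and 52.2 in potassium-starved roots, against 87.4, 78.9 and 164.5 in control roots, where replicate 3 stood high.

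The 5 xylan acetyltransferases, grouped by known role after their values had been seen, had no overlap between potassium-starved and control roots. The same was true of TBL19, TBL25, TBL37, TBL39, TBL41 and IRX15-L, so it was not particular to xylan acetyltransferases. How many of all probe sets had no overlap was not counted, so nothing is concluded from the lack of overlap. In TBL35 it rests on 95.5 against 95.8. By a different measure, 18.4% of all probe sets reached an unadjusted p under 0.05. None of the 5 xylan acetyltransferases passed, where 0.491% of all tested probe sets passed as lower. TBL32 read 35.5, 33.6 and 29.4 in potassium-starved roots, against 52.8, 43.7 and 41.4 in control roots, a change of -0.34 ± 0.14. TBL34 read 52.6, 45.2 and 42.8, against 81.7, 63.8 and 55.9, a change of -0.39 ± 0.20. TBL35 read 78.6, 82.8 and 95.5, against 121.0, 119.9 and 95.8, a change of -0.33 ± 0.15. Their adjusted p lay between 0.215 and 0.318. TBL39 (-0.54 ± 0.18), TBL37 (-0.56 ± 0.21) and TBL19 (-0.50 ± 0.20) did not pass either. The 5 tested CSL genes changed by -0.26 to -0.12, and TBL36 (0.01 ± 0.18) and TBL23 (0.06 ± 0.14) were the only positive values. Summed over 4 named root-hair markers of 8 listed, the signal ran from 156 to 177 in potassium-starved and from 192.5 to 454.6 in control roots. PER35 read 31.5, 210.3 and 25.7 in control roots, so replicate 2 weighs heavily in the top of that range. The 3 tested markers were PER35 (-0.92 ± 0.55), EXPA18 (-0.53 ± 0.16) and EXPA7 (-0.08 ± 0.18), with 0 past the threshold. The part of root hairs was not tested. Of 8 xylem markers, 0 had a named probe set.

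**Figure D3:**
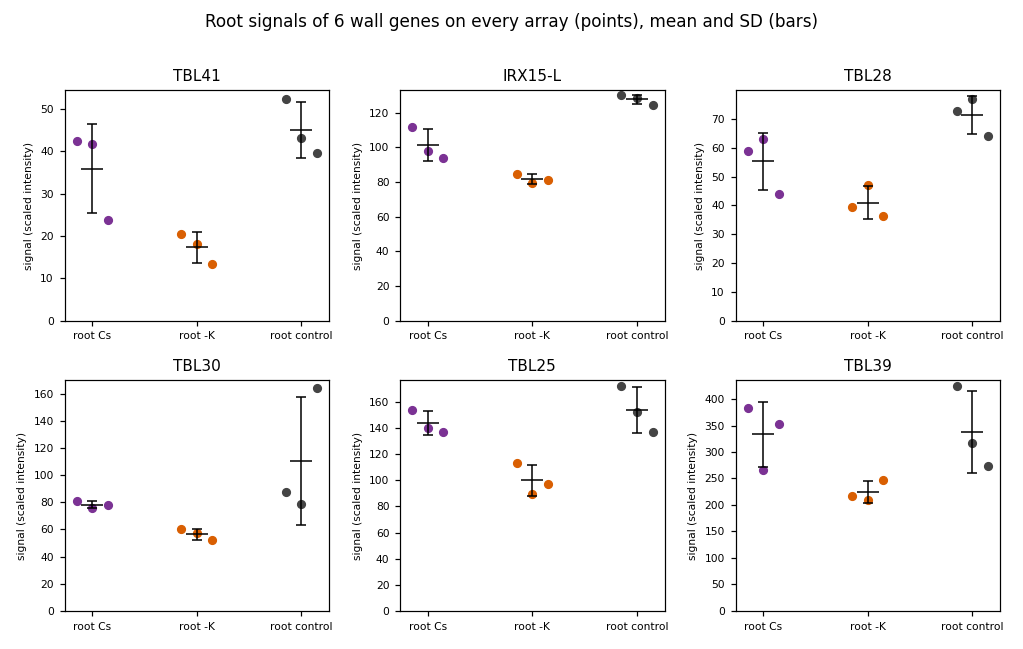
Signal (linear scaled intensity, from 0) of 6 genes on every root array of caesium-treated (Cs), potassium-starved (-K) and control plants; points are arrays and bars the mean and SD (n = 3). In all 6 the potassium-starved arrays lie below the control arrays, but TBL41 and IRX15-L alone passed the threshold, with adjusted p of 0.0409 and 0.0495.

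Caesium changed 0 of the 22 tested genes in roots, and 0% of all tested probe sets passed in either direction. At an unadjusted p under 0.05 there were 2 genes of 22, or 9.09%, against 9.91% of all probe sets. Of the 22 genes, 17 had a negative change (77.3%, against 47.9% of all probe sets), and the median was -0.16 against 0.01. A lean to negative changes was thus not particular to potassium starvation in roots, and both comparisons share the control root arrays. The smallest p belonged to IRX15-L, TBL34 and CSLD2. IRX15-L read 111.7, 98.2 and 93.8 in caesium-treated roots, below all 3 control arrays, with a change of -0.30 ± 0.12 (adjusted p = 0.450). TBL34 read 37.4, 64.5 and 31.0, a change of -0.49 ± 0.20 (adjusted p = 0.450). CSLD2 read 411.5, 454.1 and 519.7, above all 3 control arrays, a change of 0.32 ± 0.15 (adjusted p = 0.520). In caesium-treated roots the summed signal of the 4 photosynthesis markers ran from 203 to 283. This sum ran from 63.9 to 164 in control and from 90.8 to 172 in potassium-starved roots. RCA, the 1 of these markers tested in roots, did not pass against control (1.07 ± 0.34, adjusted p = 0.296). The part of shoot-type RNA in the caesium comparisons in roots was not tested.

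Caesium-treated roots against potassium-starved roots also gave 0 of 22 genes, where 2.50% of all tested probe sets were higher and 2.56% lower. At an unadjusted p under 0.05 there were 5, or 22.7%, against 24.8% of all probe sets. TBL41 read 42.3, 41.6 and 23.7 in caesium-treated roots, above every potassium-starved array, a change of 0.62 ± 0.17 (adjusted p = 0.0621). TBL25 read 154.0, 140.4 and 136.8, also above every potassium-starved array, a change of 0.47 ± 0.14 (adjusted p = 0.0708). CSLD2 changed by 0.44 ± 0.15 (adjusted p = 0.103). Weighting arrays by quality gave 4 genes past the threshold, namely TBL25, TBL41, CSLD2 and TBL19.

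**Figure D4:**
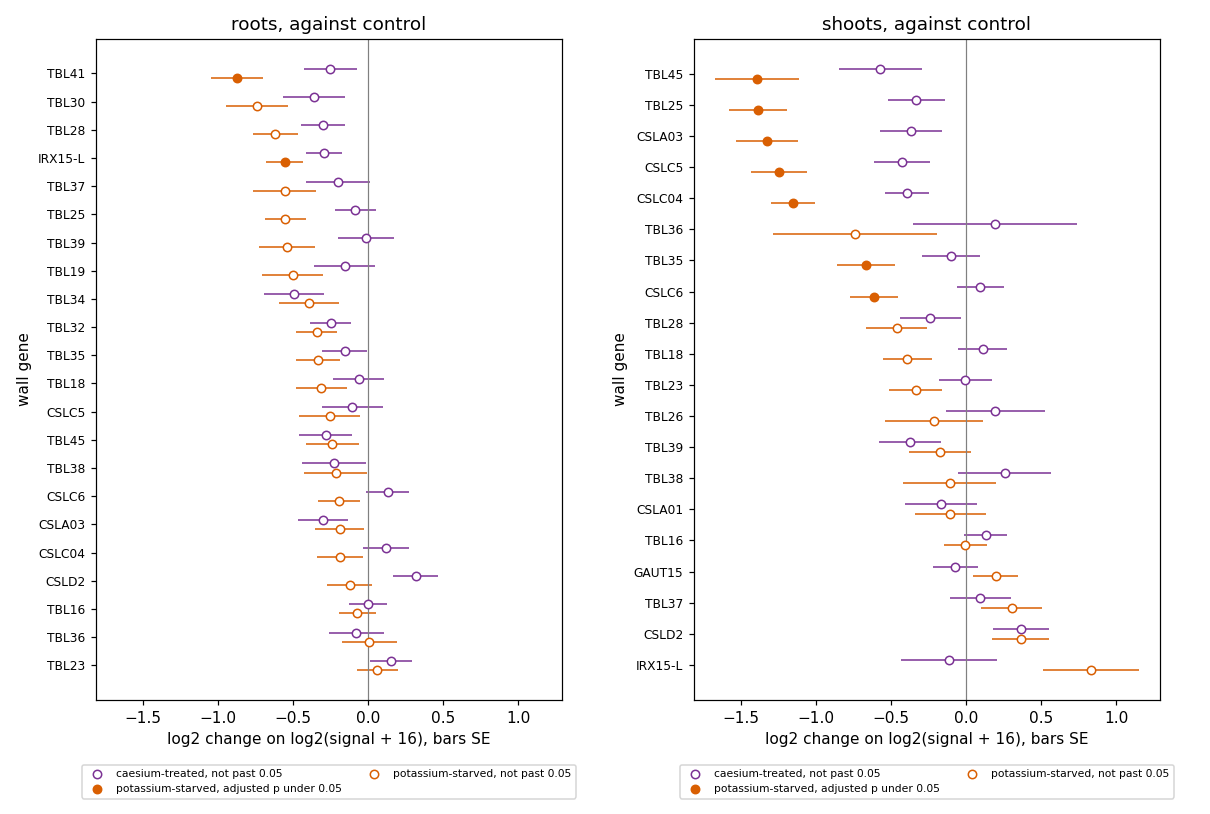
Change against control (log2 scale of signal + 16) with its SE for the 22 genes tested in roots (left) and the 20 tested in shoots (right), caesium-treated above potassium-starved in each row; filled points passed an adjusted p of 0.05. Potassium-starved shoots run from -1.39 (TBL45) to 0.83 (IRX15-L), and no caesium-treated point is filled.

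The response to potassium starvation differed between organs for 6 of the 17 genes tested in both, by an interaction term over the 18 arrays. The response was higher in roots than in shoots for 5, where 4.89% of all tested probe sets were, and lower for 1, where 5.12% were. The 5 were CSLA03 (1.14 ± 0.27, adjusted p = 0.012), CSLC04 (0.96 ± 0.20, adjusted p = 0.00629), CSLC5 (0.99 ± 0.28, adjusted p = 0.0332), TBL25 (0.83 ± 0.23, adjusted p = 0.0284) and TBL45 (1.16 ± 0.34, adjusted p = 0.0401). Each fell in shoots, and in roots its change was -0.19, -0.19, -0.26, -0.55 and -0.24 in that order. CSLC04 read 114.7, 133.5 and 137.9 in potassium-starved roots, against 150.2, 178.8 and 121.5 in control roots, so the root groups overlapped. CSLC6 and TBL35, which also fell in shoots, showed no detectable difference between organs (adjusted p = 0.180 and 0.397).

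The 1 gene with a lower response in roots was IRX15-L (-1.39 ± 0.35, adjusted p = 0.0191), the only one of the 17 whose potassium-starved arrays all lay above control in shoots and all below control in roots. How many of all probe sets had this pattern was not counted. Its change in shoots alone did not pass (adjusted p = 0.0706), and its call in roots was lost in every fit without 1 array. Of the calls of a difference between organs, CSLA03 and CSLC04 held without any 1 array. IRX15-L was lost without control shoot replicate 1 (adjusted p = 0.0556). CSLC5 and TBL25 were each lost in 6 of 12 such fits and TBL45 in 8 of 12, up to adjusted p of 0.0912, 0.0712 and 0.102, and TBL45 was also lost in 3 of 6 other fits, with a pseudocount of 1 (0.0707), with no filter (0.0624) and with each array centred on its median (0.0639). Under that centring 4 genes were higher and 2 lower. The response to caesium differed between organs for 0 of 17 genes, with 1 at an unadjusted p under 0.05 (5.88%, against 9.99% of all probe sets), where 0.0758% of all tested probe sets were higher and 0.101% lower.

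Genes that meet the rule only by a synonym were kept apart. ATCSLC08, also a CSLC gene, read 25.3, 30.3 and 37.3 in potassium-starved shoots, against 75.3, 63.3 and 109.8 in control shoots, a change of -1.05 ± 0.19 (adjusted p = 0.003). Its caesium-treated arrays read 65.3, 54.3 and 59.3, a change over potassium-starved shoots of 0.69 ± 0.19 (adjusted p = 0.022), lost with each array centred on its median (0.0679). AT2G31110, whose synonym is TBL40, has 2 probe sets, with changes of 0.64 ± 0.22 and 0.67 ± 0.24 in potassium-starved shoots (adjusted p = 0.0512 and 0.0591). GUT2, a subunit of the xylan backbone synthase, was higher in control roots than in control shoots (0.61 ± 0.19, adjusted p = 0.0117) and passed in no treatment comparison.

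Few other wall genes had a named probe set. COB, which guides cellulose deposition, was the 1 of 10 cellulose genes; it read 303.9, 182.8 and 354.1 in potassium-starved shoots, against 617.8, 588.4 and 718.4 in control shoots, a change of -1.19 ± 0.22 (adjusted p = 0.0036). Another 8 tested genes were for expansin-like proteins and for expansins, which loosen walls. Of these 8, 3 rose in potassium-starved shoots and 1 fell, where 12.1% and 17.1% of all tested probe sets did. Those that rose were EXLA1 (1.77 ± 0.32, adjusted p = 0.003), EXPA4 (1.60 ± 0.47, adjusted p = 0.027) and EXPA9 (0.92 ± 0.20, adjusted p = 0.0082). EXPA8 fell (-1.45 ± 0.31, adjusted p = 0.00694). Of 3 tested xyloglucan genes, all XTH enzymes that cut and rejoin xyloglucan, XTH19 rose (1.87 ± 0.25, adjusted p = 0.000685) and XTH16 fell (-1.07 ± 0.28, adjusted p = 0.017). In potassium-starved roots, 1 of 12 expansin and expansin-like genes rose (EXPA4, 0.74 ± 0.15, adjusted p = 0.045). There 1 of 6 xyloglucan genes fell (XTH19, -1.05 ± 0.20, adjusted p = 0.0363), while 0.975% of all tested probe sets rose and 0.491% fell. These other wall genes were not put through the alternative fits, so how firm their calls are was not tested. XTH19 read 79.5, 40.8 and 49.5 in potassium-starved roots, against 153.9, 136.2 and 104.8 in control roots, and 118.4, 149.5 and 225.8 in potassium-starved shoots, against 25.5, 29.6 and 41.9 in control shoots.

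XTH19 thus rose in shoots and fell in roots, and the root response minus the shoot response was -2.92 ± 0.34 (adjusted p = 4.84e-05). This difference was -2.10 ± 0.39 for EXLA1 (adjusted p = 0.00302), whose change in roots did not pass (-0.33 ± 0.19, adjusted p = 0.364), and 1.80 ± 0.42 for EXPA8 (adjusted p = 0.0115). Caesium moved 0 of these genes past the threshold against control in either organ. Against potassium starvation, caesium-treated shoots were lower in EXLA1 (-2.33 ± 0.32), XTH19 (-1.82 ± 0.25) and EXPA9 (-0.68 ± 0.20), with adjusted p of 0.00136, 0.00139 and 0.0306. Caesium-treated roots were higher in XTH19 (1.42 ± 0.20, adjusted p = 0.00579) and EXLB1 (0.97 ± 0.20, adjusted p = 0.0237) and lower in EXPA4 (-0.62 ± 0.15, adjusted p = 0.0436) than potassium-starved roots. Between control organs, XEG113, an arabinosyltransferase of extensins, was higher in roots (0.86 ± 0.17, adjusted p = 0.000344), as were EXLB1, EXPA4, EXPA9, EXPB3, XTH16 and XTH19, with changes from 0.80 to 1.61, while EXPA8 was lower in roots (-4.46 ± 0.30, adjusted p = 5.13e-10).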

How the data were processed

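The deposited values are 1-colour signal intensities per probe set on a linear scale. That the authors scaled them to a common level is read from the values; no header or label used here names the software or the background method. The labels gave 18 arrays in 6 groups of 3, with 22810 probe sets, 64 of them controls. Per GEO's platform annotation, 13513 probe sets had 1 gene symbol, 503 several and 8730 none listed; all 32 members matched a RefSeq gene.

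Values were transformed as log2(signal + 16) without further scaling. Probe sets with an organ mean above the 40th percentile were tested (13647 per organ, 11867 in both) with limma 3.58.1 in R 4.3.3: 9 arrays of an organ per fit, or all 18 for comparisons between organs. P-values are two-sided and adjusted by Benjamini-Hochberg, with a threshold of 0.05. The number of arrays limits the precision. Whether same-numbered replicates deviate together was judged by the lowest r among the replicate numbers. They were counted as paired in shoots (lowest r 0.319, 0.495 and 0.207) and for caesium against control roots (0.180). They were not so counted for potassium starvation against control roots (lowest -0.0299, highest 0.497) or caesium against potassium starvation in roots (lowest 0.0864, highest 0.297). The procedure was also run on simulated data with independent noise on each array. Same-numbered shoot arrays deviate together here, so that run does not give the error rate for these data.

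Per comparison, up to 10 members each way past the threshold are named, or the 3 with the smallest p, together with other wall genes past it. Members, lists and tests were chosen with earlier results of these data known. Alternatives were other pseudocounts, no filter, quantile normalization, median centring, array weights, a variance trend, a replicate block, scanner background, and arrays left out. No sequences or coordinates were used here.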

Additional observations from a re-analysis of the deposited data

Results flagged for a closer look

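The response to potassium starvation differed between roots and shoots, by an interaction term, for 6 wall genes. The root response minus the shoot response was 1.14 for CSLA03, 0.96 for CSLC04, 0.99 for CSLC5, 0.83 for TBL25 and 1.16 for TBL45, which fell in shoots. It was -1.39 for IRX15-L, whose potassium-starved arrays lay above control in shoots, where the change did not pass, and below control in roots. What sets the organs apart was not tested. Of the photosynthesis markers, 3 of 4 fell in potassium-starved shoots. RCA, the 1 that did not pass there (-0.36 ± 0.19, adjusted p = 0.179), was alone among them in being tested in both organs. Its response did not differ detectably between organs (0.47 ± 0.41, adjusted p = 0.494), which says nothing of the 3 that fell. The calls of CSLA03 and CSLC04 held in each fit without 1 array. CSLC5 (adjusted p up to 0.0912) was lost without root arrays potassium-starved 1 or 3 or control 2 or 3, or shoot arrays potassium-starved 2 or control 3. TBL25 (up to 0.0712) was lost without root arrays potassium-starved 1 or 3 or control 3, or shoot arrays potassium-starved 1 or 2 or control 3. TBL45 (up to 0.102) was lost without root arrays potassium-starved 1 or 2 or any control, or shoot arrays potassium-starved 1 or control 2 or 3, and IRX15-L (0.0556) without control shoot array 1. Groups of 3 arrays are too small for a check of single outlying arrays.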

How the results depend on the processing

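No named result of the rule's genes reversed its direction among 716 values in alternative fits, and 618 stayed on the same side of the threshold. These values include genes named without passing, which stay on the same side by not passing again. Of the 36 calls, 23 held in every fit without 1 array. Counts of wall genes past the threshold moved by over 1.5 times as follows. Potassium starvation against control in roots gave 2 genes, but 1 with a pseudocount of 1 or 64, no filter, quantile normalization, median centring or an intensity trend, 7 with array weights, and 0 with scanner background or without the 2 arrays titled repeat; fits without 1 array gave 0 to 1. Caesium against potassium starvation gave 9 genes in shoots, 5 with a pseudocount of 64 and 5 to 7 without 1 array. In roots it gave 0, but 1 with a pseudocount of 1, 4 with array weights and 0 to 1 without 1 array. Caesium against control in shoots gave 0, but 1 with array weights, and 0 in every fit without 1 array. Control roots against control shoots gave 12 genes, 21 with no filter and 11 to 13 without 1 array. The difference of the potassium response between organs gave 6 genes and 3 to 7 without 1 array: 3 without potassium-starved root replicate 1, control root replicate 3 or control shoot replicate 3. Potassium starvation against control in shoots gave 7 genes and 5 to 7 without 1 array. The causes were not tested.

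With the replicate number as a block, 4 genes passed for potassium starvation against control in roots and 2 for caesium against potassium starvation in roots. In these 2 comparisons the arrays were not counted as paired, though r differed among the replicate numbers. In shoots, where they were counted as paired, 10 passed for potassium starvation against control in place of 7, and the block removed no call there.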
